A study of Mus musculus with 14 samples.

Results

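Rab GTPases are small membrane-bound proteins that mark the compartments of vesicle traffic. Each cycles between a GTP-bound form, which recruits motors, tethers and other effectors to a membrane, and a GDP-bound form, which is pulled off the membrane. Exchange factors load GTP, GTPase activating proteins end the active state, and a lipid tail added by prenylation anchors the protein. In B cells this traffic serves antigen receptor uptake, delivery of antigen to late endosomes and the secretion of antibody. The genes described here are the rows of the deposited gene table whose symbol is Rab followed by a number and at most 1 letter and 1 further digit, which gave 57 of 22295 rows. Of these 57, 43 had a mean of at least 0.5 RPKM (reads scaled to transcript length in kilobases and to the mapped reads of the library) over the 14 libraries and were tested, and the 14 below that mean were only counted. Rab4a (mean 0.515 RPKM) and Rab26 (0.540 RPKM) stood just inside this limit, and Rab39 (0.487 RPKM) and Rab17 (0.430 RPKM) just outside it. Rab38, Rab3c and Rab27b were listed at 0 in every library.

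The libraries held polyadenylated RNA of mouse splenic B cells, enriched by negative selection and then cultured for 4 days with LPS (5 µg/ml) plus IL-4 (10 ng/ml), a stimulus under which B cells proliferate and switch antibody class. Of the 14 libraries, 5 were of the genotype PU.1[155-/155-], in which the miR-155 target site of the gene for the transcription factor PU.1 is mutated (PU1_KI in the plots, here the PU.1 site mutant). Another 5 were miR-155[-/-], without the microRNA (miR155_KO, here the miR-155 knockout), and 4 were wild type (WT). All 3 genotypes had the same culture, and the study asked how the control of PU.1 by miR-155 bears on B cell differentiation. The labels give no age, sex or strain. The replicates are called biological, without a statement on whether each came from 1 mouse, and the labels name no allele restricted to B cells, so a change in the cultured cells and a change in the spleen they came from cannot be told apart.

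The libraries were 31.4 to 52.4 M reads deep (in units of 1e6 reads), as estimated from the step between low values (31.4 to 47.1 M reads in the PU.1 site mutant, 38.7 to 52.4 M reads in the miR-155 knockout and 35.3 to 44.1 M reads in wild type). Sfpi1, the gene of PU.1, had 21.1 to 26.0 RPKM in PU.1 site-mutant cells and 15.5 to 18.3 RPKM in miR-155 knockout cells, against 9.73 to 13.2 RPKM in wild-type cells, so the 3 ranges did not overlap. All 6 of 6 B cell markers were present, with a summed level of 1507 to 1757, 1320 to 1437 and 1472 to 1702 RPKM in PU.1 site-mutant, miR-155 knockout and wild-type libraries. The 6 T cell markers stayed under a mean of 0.5 RPKM each, but their sum was 0.130 to 0.323, 0.701 to 0.952 and 0.103 to 0.217 RPKM in the same order of groups, and the knockout's excess lay mainly in Cd8a. Among 4 dendritic cell markers Flt3 alone passed 0.5 RPKM, and the summed level was 23.0 to 29.1, 19.3 to 25.5 and 13.7 to 17.7 RPKM. Macrophage markers summed to 1.23 to 1.57, 1.89 to 2.22 and 1.26 to 1.73 RPKM. The knockout's excess lay mainly in Emr1 and Itgam, at 0.738 and 0.331 RPKM against 0.200 and 0.050 RPKM in wild type. Cd14 was also higher there than in wild type, whereas Lyz2, Csf1r and Apoe were lower. Of the neutrophil markers 4 of 5, and of the mast cell markers 4 of 5, were listed at 0. The part of these cells in the results below was not tested. In bulk RNA, fewer cells of a type and less RNA per cell cannot be told apart.

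The microRNA missing from the knockout is shown because its seed, bases 2 to 8 from the 5′ end, is what pairs with target transcripts. The mature miR-155-5p (RefSeq, GRCm38.p6, chr16:84714143-84714165, plus strand) reads, with the seed in capitals:
miR-155-5p: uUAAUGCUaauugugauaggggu
Rab transcripts were searched for the complement of this seed in the longest annotated 3′ untranslated region of each gene (GENCODE M21, GRCm38, transcript strand only). The motifs were AGCATTAA, called an 8mer, and, outside any 8mer, AGCATTA and GCATTAA, called 7mers. The sites of the Rab genes that moved furthest in the knockout and hold a match are printed below in transcript sense, with the match in capitals. These 5 genes were picked for display after their values were seen, and the set has members that rose and members that fell.
Rab8b, chr9:66847321-66847328, minus strand: aaagacagcagAGCATTAAacagaggttga
Rab6, first match, chr7:100640207-100640213, plus strand: acaccttttaaAGCATTAgatttcacttg
Rab6, second match, chr7:100640468-100640474, plus strand: agaggaagtatGCATTAAgagggaaagga
Rab6, last match, chr7:100640917-100640923, plus strand: tttatgttgtaAGCATTActtaacacagt
Rab34, chr11:78192167-78192173, plus strand: ctgtgccttatGCATTAAagtccattatt
Rab30, chr7:92836102-92836108, plus strand: gactgcaggccAGCATTAgcagaacacat
Rab39b, chrX:75573319-75573325, minus strand: ttgacaagaggGCATTAAataagggatta

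Rab35 was the most abundant Rab transcript in every genotype. Over the 14 libraries it averaged 123 RPKM, ahead of Rab7 (43.3 RPKM), Rab5c (34.6 RPKM), Rab21 (29.2 RPKM) and Rab1 (25.6 RPKM), and these 5 genes held 43.66% of the summed Rab RPKM. Rab35 serves endocytic uptake and fast recycling, Rab7 fusion of late endosomes with lysosomes, Rab5c fusion of early endosomes, Rab21 uptake of integrins, and Rab1 (Rab1a in current nomenclature) transport from the endoplasmic reticulum to the Golgi. In all, 18 Rab genes averaged at least 10 RPKM, 19 lay between 1 and 10 RPKM and 6 between 0.5 and 1 RPKM. The summed Rab level was 616.3 ± 36.0 RPKM in PU.1 site-mutant cells and 575.1 ± 15.7 RPKM in miR-155 knockout cells, against 563.1 ± 32.8 RPKM in wild-type cells (SD, n = 5, 5 and 4). Abundances are set side by side per kilobase, which RPKM provides.

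The abundant Rab genes differed little between genotypes. Rab35 had 116, 126, 141, 138 and 124 RPKM in PU.1 site-mutant libraries and 114, 115, 115, 114 and 125 RPKM in miR-155 knockout libraries, against 113, 124, 135 and 128 RPKM in wild-type libraries. All 3 groups overlap. The log2 difference from wild type was 0.05 (95% interval -0.09 to 0.19, adjusted p = 0.641) in the site mutant and -0.10 (-0.24 to 0.04, adjusted p = 0.207) in the knockout. Rab1 was closest to level, with log2 differences of 0.02 (-0.09 to 0.12) in the site mutant and 0.00 (-0.11 to 0.10) in the knockout. Rab7 had 41.1, 46.1, 48.4, 51.6 and 45.03 RPKM in PU.1 site-mutant libraries and 39.5, 40.3, 41.0, 39.8 and 44.6 RPKM in miR-155 knockout libraries, against 37.9, 41.8, 42.8 and 46.7 RPKM in wild-type libraries. Rab5c had 34.1, 36.5, 40.2, 41.6 and 34.9 RPKM in PU.1 site-mutant libraries and 32.7, 34.0, 32.9, 29.4 and 36.9 RPKM in miR-155 knockout libraries, against 28.6, 35.3, 35.1 and 32.5 RPKM in wild-type libraries. Rab21 had 27.0, 30.9, 30.6, 34.0 and 30.8 RPKM in PU.1 site-mutant libraries and 29.2, 27.3, 32.1, 29.6 and 29.9 RPKM in miR-155 knockout libraries, against 24.4, 26.6, 26.8 and 30.2 RPKM in wild-type libraries. None of these 5 passed the test against wild type in either mutant, and all ranges overlap. With quantile normalization, though, Rab1, Rab7, Rab5c and Rab21 were called higher in the knockout. Rab7 and Rab5c were lower in the knockout than in the site mutant by the deposited scale (log2 differences -0.17 ± 0.07 and -0.17 ± 0.07, SE, adjusted p = 0.0266 and 0.0462), but neither call was firm. Median-of-ratios scaling took the adjusted p to 0.128 and 0.296, and both differences turned positive with quantile normalization. The Rab7 call was also lost without site-mutant replicate 3 or 4 or knockout replicate 1, 2 or 4. The Rab5c call was lost without a filter, and without wild-type replicate 4, site-mutant replicate 2, 3 or 4, or knockout replicate 1, 2, 3 or 4.

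**Figure D1:**
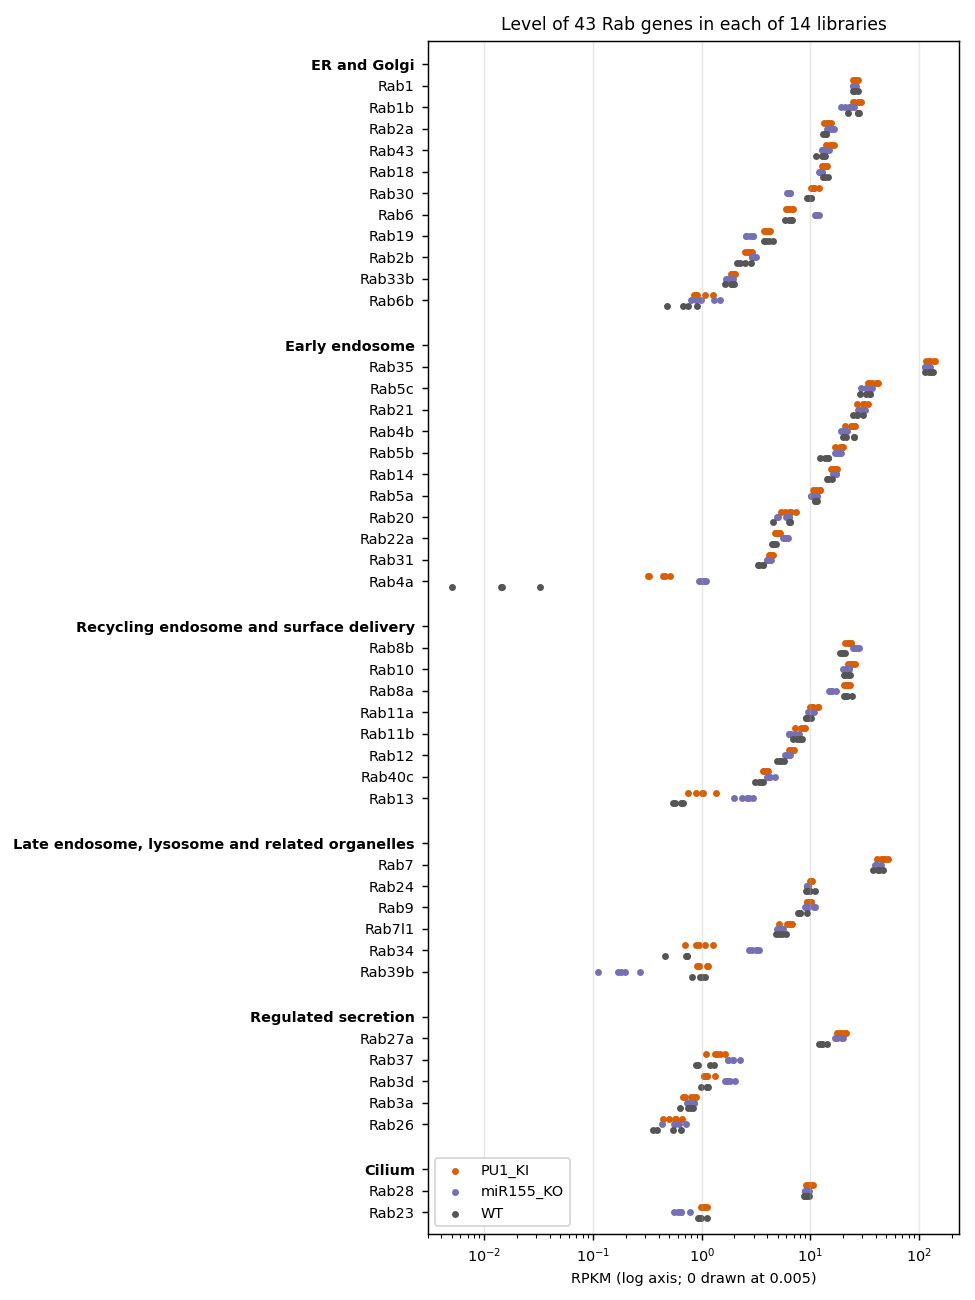
RPKM (log axis, 0 drawn at 0.005) of the 43 tested Rab genes, grouped by role, with 1 dot per library in PU1_KI (5), miR155_KO (5) and WT (4). Rab35 stands to the right of every other Rab gene, and Rab4a, Rab13, Rab34, Rab6 and Rab39b show the miR155_KO dots apart from both other groups.

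Each mutant was compared with wild type, and the mutants with each other, in 1 limma fit on log2(RPKM + 0.5) over the 10130 rows with a mean of at least 0.5 RPKM. A gene was called where the two-sided Benjamini-Hochberg adjusted p over all those rows was under 0.05. Because of the added 0.5, log2 fold changes understate the change of genes near or under 1 RPKM. The comparisons of the mutants with wild type share the 4 wild-type libraries. Rab4a passed the 0.5 RPKM limit only through the knockout libraries, so its presence in the counts below follows in part from that limit.

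In PU.1 site-mutant cells 14 of 43 Rab genes were called higher than in wild-type cells and 0 were called lower. That is 32.6% of the Rab genes, where 27.4% of all rows were called, 23.3% higher and 4.1% lower. At an unadjusted p under 0.05 the Rab counts were 21 higher and 0 lower in limma. The share of all rows at that unadjusted p was not counted, so these counts cannot be set against the shares above. The median log2 fold change was 0.13 over Rab genes and 0.07 over all rows tested. On the log2(RPKM + 0.5) scale no Rab gene was called at 1.5-fold or more apart from Rab4a, which the 0.5 RPKM limit admitted only through the knockout. Over all rows 2.21% were higher and 0.523% lower by that size. By the ratio of mean RPKM the called genes Rab13 (1.66-fold) and Rab27a (1.51-fold) also reached it. The count depended on scaling between libraries: it was 8 with median-of-ratios scaling and 7 with quantile normalization, which also took the share of higher calls among all called rows from 85.1% to 52.9% and 49.6%. Of all 10130 rows, 1739 and 1594 were called higher under these scalings. The Rab count was 9 without wild-type replicate 1, where 1688 of 10139 rows were called higher. The 7 genes called under both scalings were Rab12, Rab13, Rab27a, Rab31, Rab43, Rab4a and Rab5b.

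In miR-155 knockout cells 18 of 43 Rab genes were called higher and 7 lower than in wild-type cells. These are 41.9% and 16.3% of the Rab genes, where 61.9% of all rows were called, 27.4% higher and 34.5% lower. The median log2 fold change was 0.08 over Rab genes and -0.04 over all rows tested. On the log2(RPKM + 0.5) scale Rab34, Rab13, Rab6 and Rab37 rose by 1.5-fold or more, and Rab39b and Rab30 fell by that much. Rab4a also rose by that size, but the 0.5 RPKM limit admitted it only through the knockout. Over all rows 7.52% rose and 5.62% fell by that size. By the ratio of mean RPKM the called genes Rab3d (1.63-fold) and Rab6b (1.55-fold) also rose by that much, and Rab23 fell to 0.648 of wild type. Median-of-ratios scaling called 19 higher, all 18 of the genes above among them, and called the same 7 lower, while quantile normalization called 24 higher and 5 lower. Of all 10130 rows, median-of-ratios scaling called 3212 higher and 3691 lower, and quantile normalization 3112 higher and 3714 lower.

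Set against each other, the mutants differed in 8 Rab genes called higher and 15 called lower in miR-155 knockout cells than in PU.1 site-mutant cells. All rows were called in 63.6% of cases, 18.4% higher and 45.2% lower, so the Rab shares of 18.6% and 34.9% have to be read against a table in which most calls were downward. The median of all rows was -0.125 on the deposited scale and -0.027 with median-of-ratios scaling, under which 13 Rab genes were called higher and 7 lower. Of all 10130 rows, that scaling called 2908 higher and 3465 lower. On the log2(RPKM + 0.5) scale Rab34, Rab13 and Rab6 were higher by 1.5-fold or more and Rab39b and Rab30 lower, where 4.21% and 5.49% of all rows passed that size. Rab4a was also higher by that size, but the 0.5 RPKM limit admitted it only through the knockout. By the ratio of mean RPKM Rab3d (1.58-fold) was also higher by that much and Rab23 (0.617 of the site mutant) lower.

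By gene, 12 Rab genes were called higher in both mutants against wild type (Rab8b, Rab27a, Rab5b, Rab14, Rab9, Rab12, Rab31, Rab40c, Rab34, Rab37, Rab13 and Rab4a), 2 in the site mutant alone (Rab43 and Rab11a) and 6 in the knockout alone (Rab2a, Rab6, Rab22a, Rab2b, Rab3d and Rab6b). The 7 called lower in the knockout (Rab1b, Rab8a, Rab18, Rab30, Rab19, Rab23 and Rab39b) were not called in the site mutant. The shares of all rows in these classes were not counted, and both comparisons share the wild-type libraries, so the counts are a listing only. Called in a single mutant is no test of a difference between mutants. By the direct test, all 7 were lower in the knockout than in the site mutant, and so was Rab43, while Rab6, Rab22a and Rab3d were higher. Rab11a, Rab2a, Rab2b and Rab6b did not pass that direct test. With median-of-ratios scaling Rab18 and Rab43 lost that direct call, with quantile normalization Rab1b did too, and under both scalings Rab2a and Rab2b were called higher in the knockout than in the site mutant. In 9 Rab genes every knockout library lay above all libraries of both other groups, and in 5 every knockout library lay below them. The 9 include Rab4a, which the 0.5 RPKM limit admitted only through the knockout. The share of all rows separated in this way was not counted, so these counts are not read as a trait of Rab genes. By another measure, the adjusted p, 61.9% of all rows were called in the knockout against wild type and 63.6% against the site mutant.

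**Figure D2:**
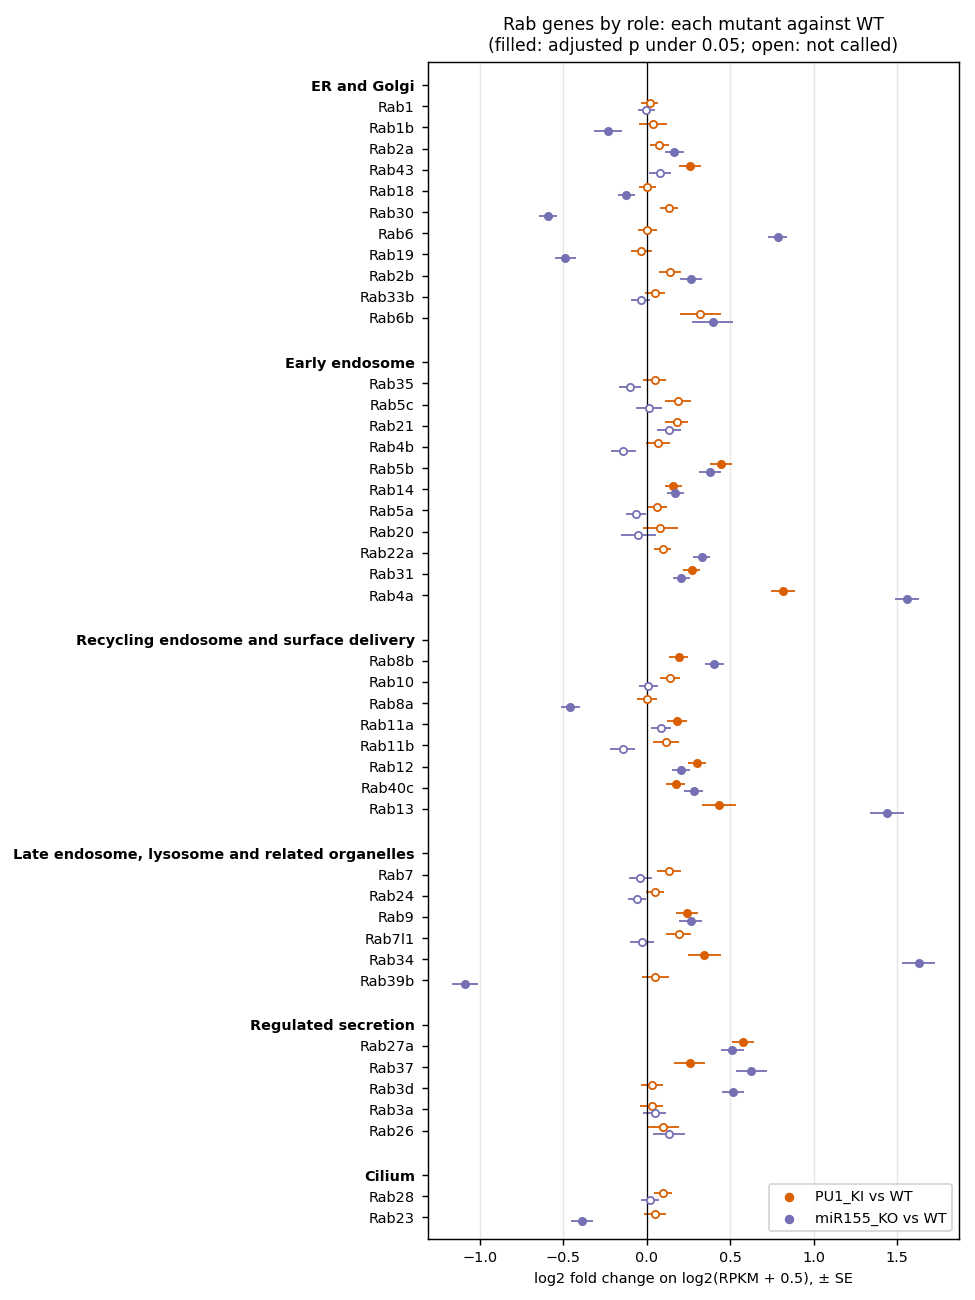
Log2 fold change on log2(RPKM + 0.5) with its SE for each of the 43 tested Rab genes by role, PU1_KI vs WT and miR155_KO vs WT, filled where the adjusted p was under 0.05. The PU1_KI points lie mostly between 0 and 0.5, whereas the miR155_KO points run from -1.09 (Rab39b) to 1.63 (Rab34).

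Of the 11 tested Rab genes that act between the endoplasmic reticulum and the Golgi, 1 rose and 0 fell in the site mutant, where 23.3% of all rows rose and 4.1% fell. In the knockout 4 rose and 4 fell, near the 27.4% and 34.5% of all rows. Rab6 (Rab6a in current nomenclature, chr7:107755924-107789782 in the files' build NCBIM37), which directs retrograde transport through the Golgi, set the knockout apart. Its level was 5.93, 6.72, 6.35, 6.88 and 6.12 RPKM in PU.1 site-mutant libraries and 11.1, 11.2, 11.99, 11.3 and 11.2 RPKM in miR-155 knockout libraries, against 6.40, 5.78, 6.64 and 6.71 RPKM in wild-type libraries. Every knockout library lay above the highest of the others, and the site mutant and wild type overlapped. The log2 fold change was 0.79 ± 0.06 in the knockout (SE, adjusted p = 9.19e-10) and 0.00 ± 0.06 in the site mutant (adjusted p = 0.971, 95% interval -0.12 to 0.12). Rab6b, a close relative known mainly from neurons, averaged 0.995 and 1.09 RPKM in PU.1 site-mutant and miR-155 knockout cells and 0.701 RPKM in wild-type cells, and was called in the knockout alone, a call lost with quantile normalization.

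Rab30, a Golgi Rab linked to Golgi structure and to autophagy of bacteria, ran the other way. It had 10.3, 10.9, 10.7, 10.1 and 11.9 RPKM in PU.1 site-mutant libraries and 6.27, 6.45, 6.54, 6.13 and 6.19 RPKM in miR-155 knockout libraries, against 9.36, 9.49, 10.1 and 10.2 RPKM in wild-type libraries. The knockout libraries lay below all others, with a log2 fold change of -0.59 ± 0.05 against wild type (adjusted p = 2.15e-08) and -0.73 ± 0.05 against the site mutant (adjusted p = 6.44e-10). Rab19, a less studied Golgi Rab, fell to 2.76 ± 0.187 RPKM in knockout cells, against 4.07 ± 0.332 RPKM in wild-type cells. Rab1b and Rab18, which serve export from the endoplasmic reticulum and lipid droplets, fell by 0.23 and 0.12 on the log2 scale in the knockout, and neither call held with quantile normalization. Rab43, which acts between the endoplasmic reticulum and the Golgi, was the 1 member of this group called in the site mutant. It had 13.9, 15.1, 15.4, 16.5 and 15.4 RPKM in PU.1 site-mutant libraries and 12.8, 14.1, 12.7, 12.9 and 14.8 RPKM in miR-155 knockout libraries, against 11.3, 13.2, 12.9 and 13.5 RPKM in wild-type libraries. The site-mutant range lay above the wild-type range (log2 fold change 0.26 ± 0.07, adjusted p = 0.00618), and the knockout overlapped both.

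Of the 11 tested Rab genes of the early endosome, 4 rose in the site mutant and 5 in the knockout, with 0 called lower in either. Over all rows 23.3% rose and 4.1% fell in the site mutant, and 27.4% rose and 34.5% fell in the knockout. The site-mutant call of Rab14 was lost with median-of-ratios scaling. Rab5b, which drives fusion of early endosomes, had 16.9, 19.6, 18.8, 19.9 and 19.4 RPKM in PU.1 site-mutant libraries and 17.4, 16.8, 18.9, 18.3 and 18.8 RPKM in miR-155 knockout libraries, against 12.3, 13.6, 14.6 and 14.6 RPKM in wild-type libraries. Both mutants lay above wild type without overlap and overlapped each other. The log2 fold changes were 0.45 ± 0.06 in the site mutant (adjusted p = 3.6e-05) and 0.38 ± 0.06 in the knockout (adjusted p = 4.51e-05), and the difference between the mutants was -0.07 (95% interval -0.19 to 0.06), which became 0.12 with quantile normalization. Its paralogs Rab5a and Rab5c were not called against wild type in either mutant.

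Rab31, which carries cargo between the trans-Golgi network and endosomes, had 4.14, 4.31, 4.35, 4.49 and 4.28 RPKM in PU.1 site-mutant libraries and 3.98, 3.96, 4.20, 4.08 and 4.35 RPKM in miR-155 knockout libraries, against 3.64, 3.35, 3.32 and 3.67 RPKM in wild-type libraries. The wild-type range again lay below both mutants (log2 fold changes 0.27 and 0.21, adjusted p = 0.00065 and 0.00173). Rab22a, which directs early endosome sorting and recycling of surface molecules, averaged 4.98 ± 0.192 and 5.94 ± 0.254 RPKM in PU.1 site-mutant and miR-155 knockout cells and 4.62 ± 0.139 RPKM in wild-type cells, and was called higher in the knockout than in either other group.

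Rab4a, which returns cargo rapidly from early endosomes to the surface, had 0.319, 0.326, 0.462, 0.506 and 0.439 RPKM in PU.1 site-mutant libraries and 0.944, 0.974, 1.09, 1.06 and 1.03 RPKM in miR-155 knockout libraries, against 0, 0.0141, 0.0322 and 0.0146 RPKM in wild-type libraries. The 3 groups did not overlap. Converted at the estimated depths and a fitted transcript length, these values correspond to 142 reads in the site mutant (18 to 42 a library) and 414 in the knockout (72 to 94), against 4 in wild type (0 to 2). The length was chosen so that the values of all libraries came near whole reads, and the largest deviation was 0.124 read. Relative to depth, the ratio to wild type was 29.1 in the site mutant (exact 95% interval 11.1 to 108) and 70.9 in the knockout (27.5 to 261). These intervals cover counting error only and take the fitted read counts as given. The limma values are not given as support, since the site mutant and wild type lie under the limit that admitted the gene. The identity of these reads is uncertain: the whole of Rab4a (chr8:126329885-126359187, plus strand, NCBIM37), 29303 bp, lies within the row Gm20388 on the same strand. Gm20388 averaged 9.91, 11.02 and 10.1 RPKM in PU.1 site-mutant, miR-155 knockout and wild-type cells and was not called in either mutant (adjusted p = 0.813 and 0.129). The sources used here do not state how reads common to both rows were counted, and the part of this overlap in the Rab4a values was not tested. Leaving out any 1 knockout library took Rab4a below the 0.5 RPKM mean, so it has no test there. Its paralog Rab4b, at 23.9 ± 1.98, 20.6 ± 1.08 and 22.9 ± 2.52 RPKM in the same order, was not called against wild type in either mutant.

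Among the 8 tested Rab genes of recycling endosomes and surface delivery, 5 rose in the site mutant, and 4 rose and 1 fell in the knockout, where 23.3% of all rows rose in the site mutant and 27.4% rose and 34.5% fell in the knockout. Of the 5 in the site mutant, only Rab12 and Rab13 were also called with median-of-ratios scaling, and Rab8b, Rab11a and Rab40c were not. The closely related Rab8a and Rab8b, which carry vesicles from the Golgi and recycling endosomes to the plasma membrane, moved in opposite directions in the knockout. Rab8a had 20.2, 21.4, 21.7, 23.0 and 22.2 RPKM in PU.1 site-mutant libraries and 15.4, 15.9, 15.1, 14.8 and 17.1 RPKM in miR-155 knockout libraries, against 20.3, 20.9, 21.7 and 23.9 RPKM in wild-type libraries. Rab8b had 20.8, 22.8, 22.2, 23.5 and 23.8 RPKM in PU.1 site-mutant libraries and 26.0, 25.1, 28.0, 27.6 and 24.8 RPKM in miR-155 knockout libraries, against 19.7, 19.6, 18.6 and 20.9 RPKM in wild-type libraries. Every knockout library was lowest for Rab8a and highest for Rab8b, and the other groups overlapped in both genes. In the knockout Rab8a fell by 0.46 on the log2 scale (SE 0.06, adjusted p = 2.19e-06) and Rab8b rose by 0.41 (SE 0.06, adjusted p = 5.88e-06). In the site mutant the values were 0.00 ± 0.06 for Rab8a (adjusted p = 0.991) and 0.19 ± 0.06 for Rab8b (adjusted p = 0.0171), and the Rab8b call was lost with median-of-ratios scaling. Rab8b carries the 8mer printed above, and no match was found for Rab8a.

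Rab13, known from recycling to epithelial junctions and the surface, had 0.894, 1.02, 0.745, 1.01 and 1.35 RPKM in PU.1 site-mutant libraries and 2.70, 2.61, 2.98, 2.33 and 1.99 RPKM in miR-155 knockout libraries, against 0.549, 0.570, 0.668 and 0.639 RPKM in wild-type libraries. The groups lay apart in the order knockout, site mutant, wild type. The log2 fold changes were 0.43 ± 0.10 in the site mutant (adjusted p = 0.00371) and 1.44 ± 0.10 in the knockout (adjusted p = 6.29e-10), and the mutants differed by 1.01 ± 0.10 (adjusted p = 4.9e-08). Rab12, which steers transferrin receptor from recycling endosomes to lysosomes, had 6.31, 6.84, 6.62, 7.11 and 6.50 RPKM in PU.1 site-mutant libraries and 6.11, 5.82, 6.38, 6.43 and 6.32 RPKM in miR-155 knockout libraries, against 5.41, 4.96, 5.20 and 5.72 RPKM in wild-type libraries. Both mutants lay above wild type (log2 fold changes 0.30 ± 0.05 and 0.21 ± 0.05, adjusted p = 0.000377 and 0.00293). Of the Rab11 genes, which define the slow recycling endosome, Rab11a was called higher in the site mutant (0.18 ± 0.06, adjusted p = 0.0314), a call lost with median-of-ratios scaling and without wild-type replicate 1. Rab11b was not called against wild type in either mutant.

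Of the 6 tested Rab genes of late endosomes, lysosomes and related organelles, 2 rose and 0 fell in the site mutant, and 2 rose and 1 fell in the knockout. Over all rows 23.3% rose and 4.1% fell in the site mutant, and 27.4% rose and 34.5% fell in the knockout. Rab34, known for lysosome positioning and macropinocytosis (chr11:78001932-78005695, plus strand, NCBIM37), had 0.704, 0.9502, 0.887, 1.08 and 1.26 RPKM in PU.1 site-mutant libraries and 3.25, 3.15, 3.33, 2.93 and 2.71 RPKM in miR-155 knockout libraries, against 0.460, 0.712, 0.734 and 0.726 RPKM in wild-type libraries. The knockout libraries stood above all others, while the site mutant and wild type overlapped. The log2 fold change was 1.63 ± 0.10 in the knockout (adjusted p = 6.44e-11) and 0.35 ± 0.10 in the site mutant (adjusted p = 0.0131). The site-mutant call was lost without wild-type replicate 1, the lowest library (0.26, adjusted p = 0.0662), and quantile normalization gave 0.25 at an adjusted p of 0.0658.

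Rab39b, known from neuronal traffic and autophagy in humans and mice (chrX:72817385-72823570, minus strand, NCBIM37), had 0.935, 0.906, 0.947, 1.15 and 1.12 RPKM in PU.1 site-mutant libraries and 0.168, 0.110, 0.270, 0.197 and 0.180 RPKM in miR-155 knockout libraries, against 0.806, 1.07, 0.956 and 0.999 RPKM in wild-type libraries. All 5 knockout libraries were below every other library. The log2 fold change was -1.09 ± 0.08 in the knockout (adjusted p = 9.46e-10) and 0.05 ± 0.08 in the site mutant (adjusted p = 0.671). Rab9, which returns mannose 6-phosphate receptors from late endosomes to the Golgi, averaged 9.77 ± 0.399 and 9.95 ± 0.910 RPKM in PU.1 site-mutant and miR-155 knockout cells and 8.21 ± 0.702 RPKM in wild-type cells, and was called higher in both mutants, though not in the site mutant with median-of-ratios scaling.

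Of the 5 tested Rab genes of regulated secretion, 2 rose in the site mutant and 3 in the knockout, with 0 called lower in either, where 23.3% and 27.4% of all rows rose. Their summed level was 23.4 ± 1.77 RPKM in PU.1 site-mutant cells and 23.8 ± 1.496 RPKM in miR-155 knockout cells, against 16.4 ± 1.14 RPKM in wild-type cells. Rab27a made up most of this sum. It docks lysosome-related organelles and exosome-bearing compartments at the plasma membrane, and in cytotoxic lymphocytes it is needed for granule release. Rab27a had 17.6, 18.5, 19.5, 21.1 and 20.9 RPKM in PU.1 site-mutant libraries and 19.6, 17.5, 19.9, 19.4 and 17.0 RPKM in miR-155 knockout libraries, against 11.9, 12.8, 12.8 and 14.1 RPKM in wild-type libraries. Each mutant library exceeded every wild-type library, and the mutants overlapped each other. The log2 fold changes were 0.58 ± 0.07 in the site mutant (adjusted p = 3.6e-06) and 0.51 ± 0.07 in the knockout (adjusted p = 2.79e-06), with a difference between the mutants of -0.06 (95% interval -0.20 to 0.07).

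Rab3d, which serves secretory granules of exocrine cells, had 1.12, 1.05, 1.11, 1.32 and 1.04 RPKM in PU.1 site-mutant libraries and 1.62, 1.72, 1.82, 1.70 and 2.02 RPKM in miR-155 knockout libraries, against 0.977, 1.13, 1.12 and 1.13 RPKM in wild-type libraries. It rose in the knockout without overlap (0.52 ± 0.07, adjusted p = 2.33e-06), while the site mutant gave 0.03 ± 0.07 (adjusted p = 0.763). Rab37, which serves exocytosis of granules and cytokines, had 1.09, 1.32, 1.38, 1.48 and 1.65 RPKM in PU.1 site-mutant libraries and 1.93, 1.76, 2.27, 1.92 and 1.76 RPKM in miR-155 knockout libraries, against 0.883, 0.929, 1.202 and 1.29 RPKM in wild-type libraries. The knockout lay above both other groups, which overlapped. Its log2 fold change was 0.63 ± 0.09 in the knockout (adjusted p = 1.11e-05) and 0.26 ± 0.09 in the site mutant (adjusted p = 0.0459), but the site-mutant call was lost under 13 alternatives. These were both scalings (adjusted p = 0.0919 with median-of-ratios, 0.164 with quantile), no filter, the fit of those groups alone, and leaving out wild-type replicate 1 or 2, site-mutant replicate 2, 3, 4 or 5, or knockout replicate 1, 2 or 4. Over 17779 bp Rab37 overlaps Cd300lf on the opposite strand, which averaged 9.61 and 22.0 RPKM in PU.1 site-mutant and miR-155 knockout cells and 2.91 RPKM in wild-type cells. The sources used here do not state whether the counting used strand, so reads of the pair cannot be told apart, and the part of Cd300lf in the Rab37 result was not tested.

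Of the 2 tested genes linked to the cilium, Rab23, a regulator of Hedgehog signalling, fell to 0.646 ± 0.0840 RPKM in miR-155 knockout cells, against 0.996 ± 0.0819 RPKM in wild-type cells (log2 fold change -0.39 ± 0.07, adjusted p = 5.25e-05). In the site mutant it averaged 1.05 ± 0.0483 RPKM and was not called. Rab28 was not called in either mutant.

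**Figure D3:**
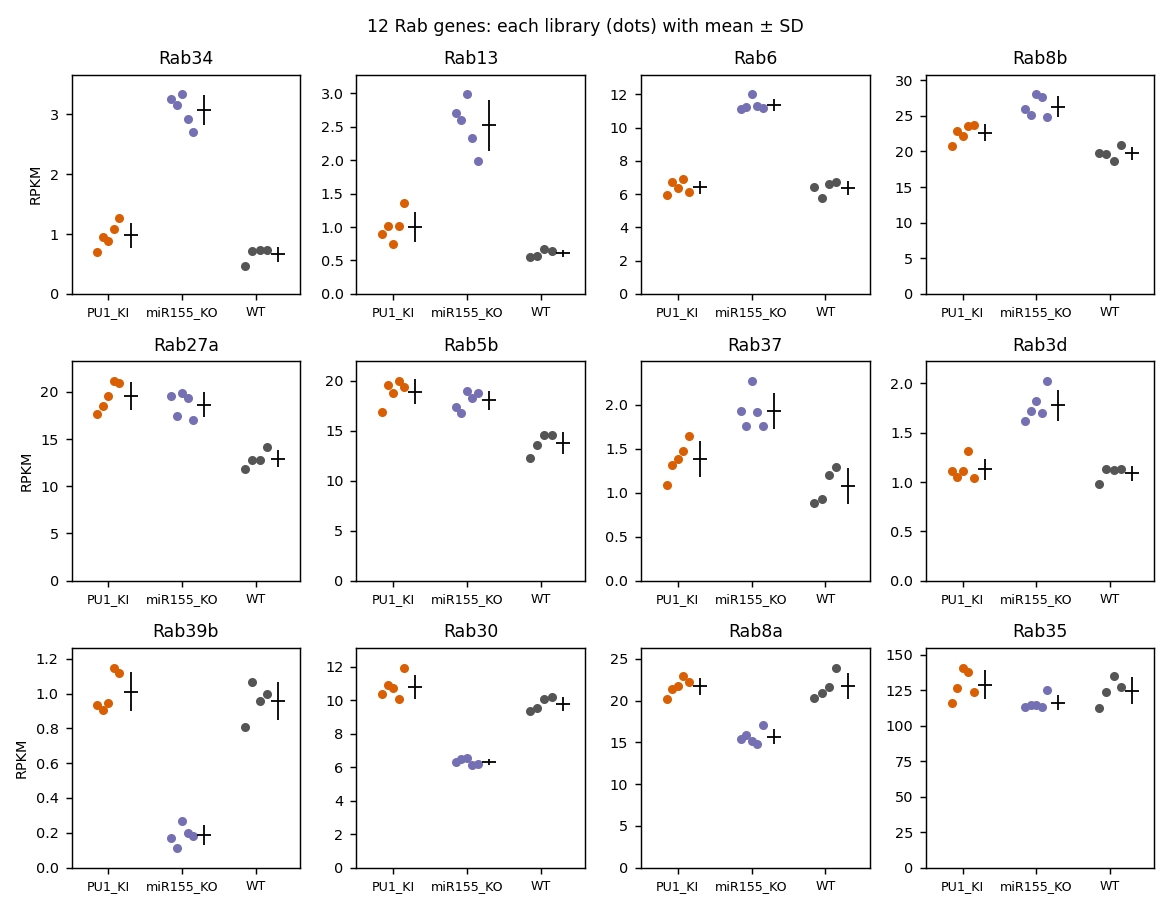
RPKM of 12 Rab genes in each library (dots) with mean ± SD (bars) for PU1_KI (5), miR155_KO (5) and WT (4), each axis starting at 0. The miR155_KO dots stand apart from both other groups in Rab34, Rab13, Rab6, Rab8b, Rab37, Rab3d, Rab39b, Rab30 and Rab8a, both mutants stand above WT in Rab27a and Rab5b, and the groups overlap in Rab35.

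Of the 43 tested Rab genes, 13 (30.2%) held at least 1 miR-155 seed match in the longest annotated 3′ untranslated region, where 13.66% of the 9894 tested rows with such a region did. The Rab regions were also longer, with a median of 1949 bases against 1146 over all rows. Among regions under 1000 bases 2 of 12 Rab genes held a match (4.61% of all rows), among those of 1000 to under 3000 bases 7 of 21 (15.3%), and among longer ones 4 of 10 (36.3%). These are matches of letters in an annotation, not sites shown to be bound.

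Rab genes with a match moved in both directions in the knockout. Rab8b, the 1 tested Rab gene with an 8mer, rose by 0.41 on the log2 scale, and the 323 rows with an 8mer had a median of 0.18 and were called higher in 172 and lower in 44 cases. Of the 12 Rab genes with 7mers alone, 6 were called higher and 2 lower, with a median of 0.17, against a median of 0.08 over 1029 such rows. Of the 30 without a match, 11 were called higher and 5 lower, with a median of 0.03, against -0.06 over 8542 rows. Rab6 with 3 matches, Rab34 and Rab22a rose, whereas Rab30 and Rab39b, each with 1 match, fell. Rab13 rose by over 1 on the log2 scale and held none of these letters in the window searched. Rab4a, whose limma values are not given as support, held none either, and neither did Rab27a, Rab5b or Rab8a. In the site mutant, which keeps miR-155, the medians were 0.14 over the 12 Rab genes with 7mers and 0.11 over the 30 without a match. Over all rows the order was the other way, with 0.05 for 7mers alone and 0.08 without a match.

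**Figure D4:**
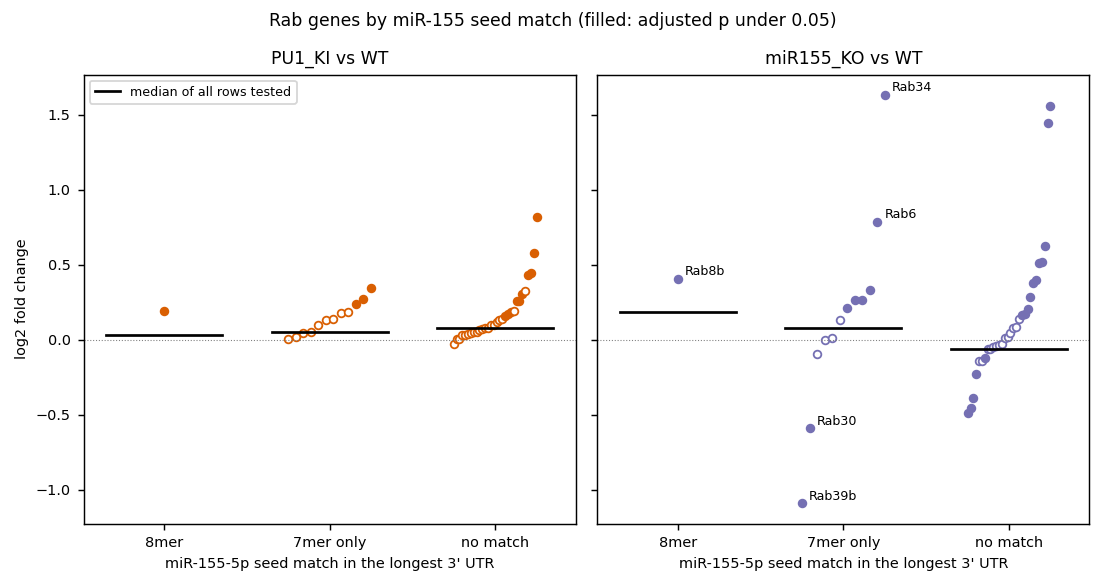
Log2 fold change of the 43 tested Rab genes in PU1_KI vs WT and miR155_KO vs WT, split by miR-155-5p seed match, filled where the adjusted p was under 0.05, with the median of all tested rows of each class as a black line. In miR155_KO the 7mer class holds both Rab34 at 1.63 and Rab39b at -1.09.

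Genes that load, unload and read out Rab proteins were taken from lists of known partners. Among the 8 that prenylate Rab proteins or extract them from membranes, 2 rose and 0 fell in the site mutant, and 3 rose and 2 fell in the knockout. The shares of all rows were 23.3% higher and 4.1% lower in the site mutant, and 27.4% higher and 34.5% lower in the knockout. Gdi2, a GDP dissociation inhibitor that keeps inactive Rab proteins soluble, averaged 134 ± 6.08 and 116 ± 7.44 RPKM in PU.1 site-mutant and miR-155 knockout cells and 108 ± 6.26 RPKM in wild-type cells. It was called in the site mutant (0.31 ± 0.06, adjusted p = 0.000674) and not in the knockout (0.10 ± 0.06, adjusted p = 0.14), and the direct test between mutants passed (adjusted p = 0.00358), though not with median-of-ratios scaling (adjusted p = 0.0555). Rabif, which holds nucleotide-free Rab proteins, fell in the knockout to 2.91 ± 0.305 RPKM, against 3.95 ± 0.250 RPKM in wild-type cells.

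Of the exchange factors, 30 of 40 listed were tested, with 12 rising and 2 falling in the site mutant and 9 rising and 8 falling in the knockout. Of all rows, 23.3% rose and 4.1% fell in the site mutant, and 27.4% rose and 34.5% fell in the knockout. Sbf2, an exchange factor of the DENN family, averaged 4.16 ± 0.288 and 7.27 ± 0.637 RPKM in PU.1 site-mutant and miR-155 knockout cells and 2.76 ± 0.270 RPKM in wild-type cells (log2 fold changes 0.52 ± 0.07 and 1.25 ± 0.07, adjusted p = 2.08e-05 and 2.41e-11). Dennd5a, of the same family, averaged 28.1 ± 1.52 and 24.5 ± 1.13 RPKM, against 17.5 ± 0.735 RPKM in wild-type cells, and rose in both mutants. Dennd4a, which activates Rab10, rose in the knockout alone, to 26.5 ± 2.92 RPKM, against 15.2 ± 0.823 RPKM in wild-type cells, and exceeded the site mutant by the direct test (0.65 ± 0.07, adjusted p = 2.19e-07).

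Of the GTPase activating proteins, 33 of 37 were tested, with 6 rising and 2 falling in the site mutant and 16 rising and 6 falling in the knockout. Of all rows, 23.3% rose and 4.1% fell in the site mutant, and 27.4% rose and 34.5% fell in the knockout. Tbc1d15, which inactivates Rab7, averaged 11.9 ± 0.889 and 16.8 ± 2.23 RPKM in PU.1 site-mutant and miR-155 knockout cells and 9.94 ± 0.263 RPKM in wild-type cells, and was called higher in both, in the site mutant not with median-of-ratios scaling nor without wild-type replicate 2 or 3 or site-mutant replicate 5. Tbc1d30 fell in both mutants, to 1.25 ± 0.201 and 1.85 ± 0.0579 RPKM, against 2.62 ± 0.205 RPKM in wild-type cells (log2 fold changes -0.84 ± 0.08 and -0.41 ± 0.08, adjusted p = 1.34e-07 and 0.000126). It was the partner named here that fell further in the site mutant than in the knockout (mutant difference 0.43 ± 0.07, adjusted p = 3.7e-05). Tbc1d23, a TBC protein of the trans-Golgi network, rose in the knockout (0.70 ± 0.08, adjusted p = 6.06e-07).

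Of the effectors, 40 of 61 were tested, with 8 rising and 2 falling in the site mutant and 14 rising and 7 falling in the knockout. Of all rows, 23.3% rose and 4.1% fell in the site mutant, and 27.4% rose and 34.5% fell in the knockout. Sytl1, an effector that links Rab27a to the plasma membrane, averaged 0.475 ± 0.0929 and 1.71 ± 0.198 RPKM in PU.1 site-mutant and miR-155 knockout cells and 0.349 ± 0.0313 RPKM in wild-type cells. The knockout range of 1.47 to 1.94 RPKM lay above the site-mutant range of 0.368 to 0.565 RPKM and the wild-type range of 0.319 to 0.382 RPKM. Sytl1 passed the 0.5 RPKM limit only through the knockout, so these values are a description with no test. Its place among the 14 rising effectors follows in part from that limit. Optn, a Rab8 effector and autophagy receptor, rose in both mutants (0.40 ± 0.07 and 0.61 ± 0.07, adjusted p = 0.000516 and 9.98e-07). Fyco1, which joins Rab7 to kinesin, rose in the knockout (0.61 ± 0.07, adjusted p = 4.65e-07), where Rab7 was not called. The share of all rows called in each direction, given above, applies to these lists too.

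**Figure D5:**
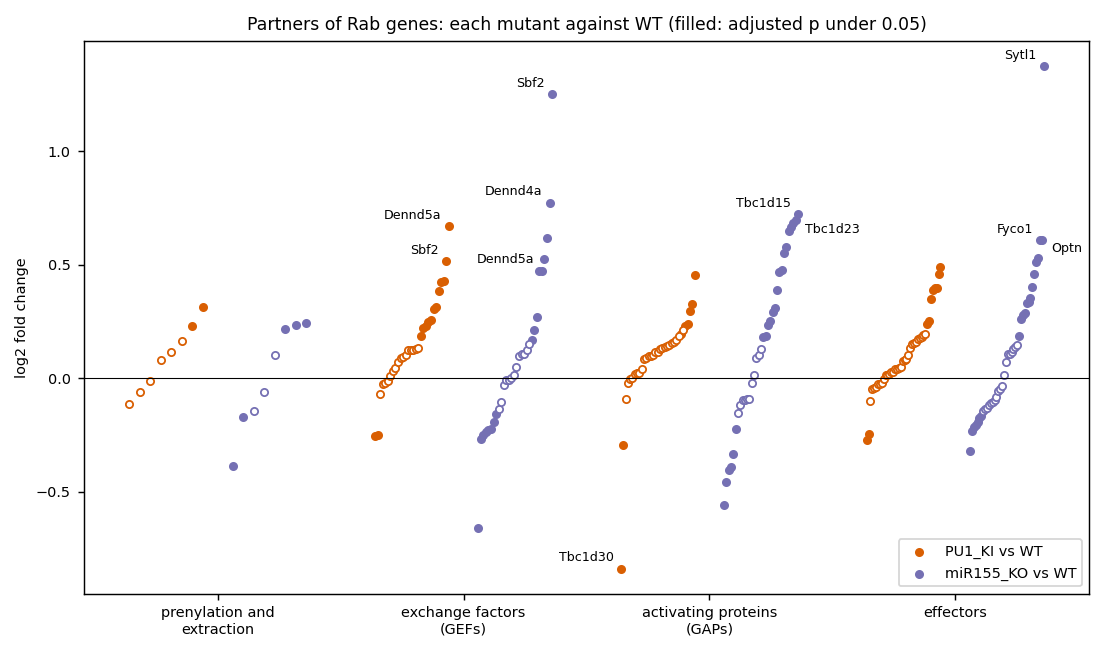
Log2 fold change of each tested Rab partner in PU1_KI vs WT and miR155_KO vs WT by list, sorted within each list and filled where the adjusted p was under 0.05. Sytl1 (1.38) and Sbf2 (1.25) stand highest in miR155_KO and Tbc1d30 (-0.84) lowest in PU1_KI. Sytl1, Tbc1d9 and Tbc1d16 passed the 0.5 RPKM limit only through miR155_KO, so their filled points there are a description only.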

How the data were processed

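RNA-seq of 14 libraries was used as gene-level RPKM values deposited by the authors in 1 table, with gene coordinates in the build NCBIM37. Per the submitters' processing notes, Trim Galore, TopHat and NCBIM37 were used, and the sources used here do not state the read counter, its strand setting, the annotation release or the treatment of reads with several alignments. Reads of close Rab paralogs may therefore have been split or lost. Depth was estimated from the deposited RPKM steps: of the 250 lowest values of rows spanning under 2500 bp, 67.2 to 72.8% came within 0.01 read of a whole number. No RPKM column was left unmatched to a sample.

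Rows with a mean of at least 0.5 RPKM were analysed as log2(RPKM + 0.5) with limma 3.58.1 in R 4.3.3, with 1 mean per genotype, an intensity trend and Benjamini-Hochberg adjustment over 10130 rows. The fit was tested on simulated data. Python 3.11.15 computed the other values.

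Symbols were checked against GENCODE M21 (57 of 57 matched by gene ID). The named Rab genes are the 5 most abundant and those called with the largest shifts from the median of all rows (the 8 largest of either mutant against wild type), 17 in all. Rab8a, Rab8b and Rab30 were added with library values after those were seen, as were Rab9, Rab19, Rab22a and Rab23 with means. Partner genes are the 3 largest called of each list. One of these is not reported here. The members and lists were chosen with earlier results of these data known. P-values weigh differences between group means against the variation between libraries of a genotype. The labels do not state whether that variation is between mice or between cultures. The labels' index barcodes repeat, so libraries were run in more than 1 pool. Which library was in which pool is not given, and pool and genotype cannot be told apart.

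Alternatives were other pseudocounts (0.1 and 1), other filters on low values, median-of-ratios and quantile scaling, a replicate block, fits of the 2 groups compared, no trend, and leaving out each library.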

Additional observations from a re-analysis of the deposited data

Results flagged for a closer look

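Single libraries stood away from the rest of their group in 5 of the 51 groups examined (17 Rab genes in 3 genotypes), by a gap to the nearest library above Dixon's critical value, which chance gives in about 1 of 20 groups. For Rab35 it was miR-155 knockout replicate 5 at 125.4 RPKM, and for Rab6 miR-155 knockout replicate 3 at 11.99 RPKM. Rab3d was high in PU.1 site-mutant replicate 4 at 1.316 RPKM and low in wild-type replicate 1 at 0.9769 RPKM. Rab34 was low in wild-type replicate 1 at 0.4604 RPKM, and without that library the Rab34 call in the site mutant was lost.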

How the results depend on the processing

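For 29 named genes in 3 comparisons, 1858 of 1980 alternative values kept sign and call, 45 lost the call, 30 gained one and 47 changed sign, of which 39 were called in neither fit and 8 in at least 1. With median-of-ratios scaling and with quantile normalization, the Rab genes called higher in the PU.1 site mutant than in wild type numbered 8 and 7, in place of 14, and in the miR-155 knockout against the site mutant 13 and 16 were higher, in place of 8, and 7 and 6 lower, in place of 15. For the knockout against the site mutant, 28.9% of all calls were higher in the main fit and 45.6% and 46.6% under these scalings. Without a filter on low values 1 Rab gene was called lower in the site mutant than in wild type, where 519 of 16526 rows were. With quantile normalization the knockout against wild type gave 0.0843 for Rab7 and 0.0881 for Rab1, and against the site mutant 0.0261 for Rab7, 0.16 for Rab21, 0.12 for Rab5b, 0.17 for Rab1 and 0.0360 for Rab5c, all positive where the main value was negative. Median-of-ratios scaling gave 0.0876 for Rab1 against the site mutant. The cause was not tested. Leaving out each library in turn gave 9 to 19 Rab genes higher (9 without wild-type replicate 1) and 0 to 0 lower in the site mutant, 16 to 19 higher and 5 to 9 lower in the knockout against wild type, and 7 to 8 higher and 10 to 16 lower against the site mutant. Of all rows tested in those fits, 1688 to 2882 were called higher (1688 without wild-type replicate 1) and 311 to 515 lower in the site mutant. In the knockout against wild type the all-row calls were 2543 to 2847 higher and 3055 to 3777 lower. Against the site mutant they were 1674 to 1937 higher and 4054 to 4896 lower. Deviations of same-numbered libraries from their group means correlated at r from -0.36 to 0.45 (13 pairs, 7 over 0.1). Differently numbered libraries of different genotypes gave -0.53 to 0.55 (52 pairs, 18 over 0.1). These values do not settle whether the numbers mark pairs, which the main fit did not assume. The fit with a replicate block called 17 Rab genes higher and 0 lower, 18 higher and 7 lower, and 9 higher and 16 lower in the same order of comparisons. Of all 10130 rows, that fit called 2470 higher and 544 lower, 2798 higher and 3782 lower, and 1944 higher and 4765 lower.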
